A study of Mus musculus with 2 samples.

Results

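Dermal papilla marker genes were examined in skin cells sorted by surface staining for ZIP10, a zinc importer. The 10 genes are Wif1, Rspo3, Corin, Alpl, Lepr, Crabp1, Vcan, Sox2, Sox18 and Trps1, taken by symbol from a table of 23233 gene symbols; all 10 were listed and all had at least 1 RPKM in at least 1 library. The source of the sorted ZIP10-positive and ZIP10-negative populations was dissociated ventral skin of wild-type C57BL/6 mice aged 7 days. The sample titles place both populations in hair follicles, whereas the protocol starts from minced ventral skin and names no sort on markers of the papilla. There was 1 library of polyadenylated RNA per population, so no test was possible and differences describe these 2 libraries. The number of animals behind each library is not given in the sources used here.

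The dermal papilla is a cluster of mesenchymal cells at the base of the hair follicle, enclosed by the epithelial hair matrix. It sends WNT, FGF and BMP pathway signals to the matrix and the follicle stem cells and so directs growth, shape and pigment of the hair. In the first postnatal week mouse follicles are in their first growth phase, and papillae are large and active. Several of its markers are also made by other cells of skin, such as SOX18 in endothelial cells and SOX2 in Merkel and Schwann cells.

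RPKM is a read number scaled by transcript length and by library size, so levels of different genes can be set against each other within a library; between these libraries they depend on the scaling, as given below. Depth was estimated at about 2.78e+06 reads for the ZIP10-positive library and 2.71e+06 reads for the ZIP10-negative library, from low values that stand in whole-number ratios and from annotated transcript lengths; 37 of 108 genes used for this lay within 1.5% of the most frequent depth. Whole-number ratios fix depth only up to a whole factor, so true read numbers may be multiples of those used here, and the intervals would then be narrower. Counting intervals below, and the counts of intervals above or below a value, rest on that estimate and cover counting error only, not variation between mice or sorts. The ZIP10 gene itself, Slc39a10, had 49.4 RPKM in ZIP10-positive cells against 11.1 RPKM in ZIP10-negative cells, in the direction of the labels. Of all RPKM, globins took 3.46% in ZIP10-positive cells and 59.4% in ZIP10-negative cells, and the median gene stood 1.97-fold higher in the ZIP10-positive library. Each member is therefore given both as deposited and relative to that median gene. In sorted bulk samples, fewer papilla cells and less RNA per cell cannot be told apart.

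Promoter sequences are shown for the most abundant member (Wif1), for the member with the highest ratio between the libraries (Crabp1) and for an abundant member whose values nearly coincided (Corin). Each spans 250 bases before to 50 bases after the annotated start, 5′ to 3′ on the gene's strand, and comes from RefSeq on build GRCm38.p6. That build differs from the mm9 build that the submitters' processing notes name. The windows are chr10:121033754-121034053 on the plus strand, chr9:54764498-54764797 on the plus strand and chr5:72504491-72504790 on the minus strand. Capitals mark matches on either strand to a GC box (GGGCGG) or a TATA box (TATAAA).
Wif1: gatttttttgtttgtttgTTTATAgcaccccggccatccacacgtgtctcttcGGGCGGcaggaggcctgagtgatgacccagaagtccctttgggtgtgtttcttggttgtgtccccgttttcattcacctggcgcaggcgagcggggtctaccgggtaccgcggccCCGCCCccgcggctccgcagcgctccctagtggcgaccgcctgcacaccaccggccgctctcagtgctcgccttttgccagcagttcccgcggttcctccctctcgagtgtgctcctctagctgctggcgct
Crabp1: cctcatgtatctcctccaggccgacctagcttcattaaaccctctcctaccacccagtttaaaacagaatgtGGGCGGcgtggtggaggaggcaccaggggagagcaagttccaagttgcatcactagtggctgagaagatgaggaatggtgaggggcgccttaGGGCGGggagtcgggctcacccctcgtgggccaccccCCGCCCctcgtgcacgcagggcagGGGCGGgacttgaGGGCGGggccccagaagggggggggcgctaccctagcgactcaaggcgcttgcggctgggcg
Corin: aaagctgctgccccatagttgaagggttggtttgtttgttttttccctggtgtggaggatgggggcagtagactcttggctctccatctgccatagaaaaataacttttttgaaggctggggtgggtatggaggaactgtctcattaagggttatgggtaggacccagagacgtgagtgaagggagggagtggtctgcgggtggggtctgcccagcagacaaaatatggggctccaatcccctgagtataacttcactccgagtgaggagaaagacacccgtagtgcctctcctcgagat
In these sequences the Crabp1 window held 5 matches to the GC box and the Corin window none to either motif. The Wif1 window held 2 matches to the GC box and 1 to the TATA box. That last match was on the opposite strand near the 5′ end of the window, away from the annotated start. No match in the 3 windows overlapped another motif. Among 32851 promoter windows of the same length, 35.7% held a GC box and 13.6% a TATA box. The core motif of TCF/LEF factors (CTTTGA), present in 16.0% of all windows, and that of SOX factors (ACAAT), present in 31.0%, were in none of the 3 windows. The GC content was 65.0% for Crabp1, 63.0% for Wif1 and 51.7% for Corin, against a median of 52.7% over all windows. The RefSeq table held 9 windows for 7 of the members and none for Rspo3, Sox18 and Trps1. These matches describe letters, and binding was not measured.

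Papilla markers were present in both populations at levels that spanned a wide range. Wif1 and Crabp1 made up 82.4% of the summed RPKM of the 10 members in ZIP10-positive cells and 71.2% in ZIP10-negative cells. The whole sum was 1649 RPKM in ZIP10-positive cells against 792 RPKM in ZIP10-negative cells, and the sum of the other 8 members was 289.9 RPKM in ZIP10-positive against 227.9 RPKM in ZIP10-negative cells. Among all gene symbols Wif1 was at rank 141 in ZIP10-positive cells and rank 113 in ZIP10-negative cells. Crabp1 was at rank 151 in ZIP10-positive cells and rank 208 in ZIP10-negative cells. Sox2 was the lowest member in both.

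**Figure D1:**
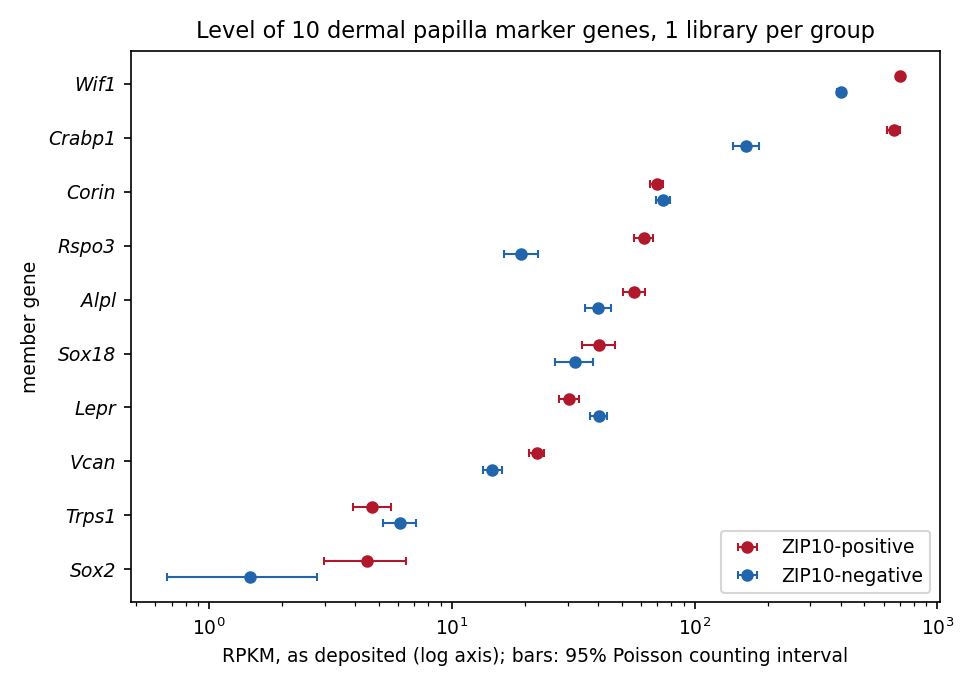
Deposited RPKM (log axis) of the 10 members in the ZIP10-positive (red, upper point of each gene) and ZIP10-negative library (blue, lower point), with 95% Poisson counting intervals. Crabp1, Rspo3 and Sox2 lie furthest to the right in red relative to blue, and Corin, Lepr and Trps1 have the blue point to the right.

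A gene is called up where it stood 2-fold or more higher in ZIP10-positive cells, taken as log2(RPKM + 1), and down where it stood 2-fold or more lower. The pseudocount of 1 pulls low genes toward no difference. All 10 members reached 1 RPKM in both libraries; a list gene that reached it in 1 library only was compared because it was higher there, so counts over such genes are partly set by that filter. As deposited, 3 of the 10 members were up, where 44.1% of the 12249 genes compared were, and none was down, where 3.55% of genes were. The 3 members were Crabp1, Rspo3 and Sox2. On the median-gene scale, in which the median gene is set to no difference, 1 member was up against 14.7% of all genes, and 3 members were down against 11.4% of all genes. Crabp1 was the one up and Corin, Trps1 and Lepr were those down. The median log2 ratio of the members was 0.53 as deposited, against 0.87 over all genes compared, and -0.42 relative to the median gene, against 0.094 over all genes compared. With such small counts these shares describe the members and set nothing apart.

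The members' ratios differed from each other. Without a pseudocount, their log2 ratios ran from -0.40 for Lepr to 2.01 for Crabp1, a 5.34-fold spread that no scaling of the libraries can change. In 6 members the 95% counting interval of the ratio lay above 1, in 2, Lepr and Trps1, it lay below 1, and in 2, Corin and Sox18, it held 1. Measured against the median gene's ratio of 1.97, the interval lay above it in 2 members, Crabp1 and Rspo3, and below it in 7, and it held that ratio in Sox2.

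**Figure D2:**
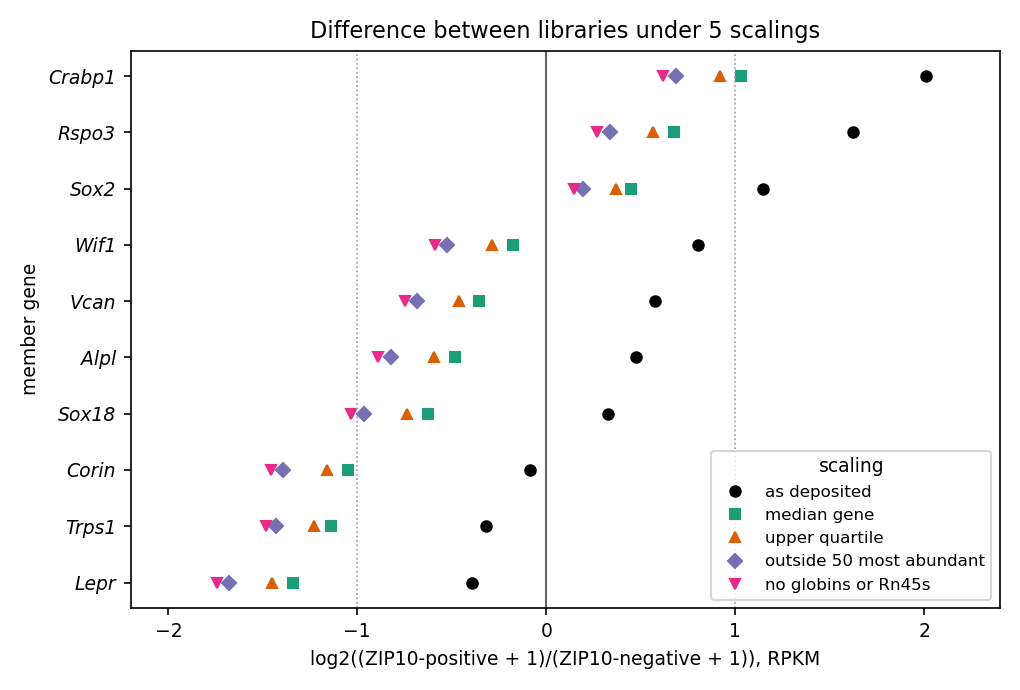
Log2 ratio of ZIP10-positive over ZIP10-negative RPKM with a pseudocount of 1 for each member, as deposited and under 4 other scalings (symbols); dotted lines mark a 2-fold difference. Crabp1, Rspo3 and Sox2 lie above 0 and Corin, Trps1 and Lepr below 0 under all 5, while Wif1, Vcan, Alpl and Sox18 lie above 0 only as deposited.

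Among the secreted WNT regulators, the inhibitor was the more abundant and the agonist had the higher ratio. Wif1, which encodes a secreted protein that binds WNT ligands and blocks them, stood at 700.1 RPKM in ZIP10-positive cells and 401 RPKM in ZIP10-negative cells. Its ratio of 1.75, with a counting interval of 1.66 to 1.84, was below that of the median gene, and its log2 ratio was 0.80 as deposited and -0.17 relative to the median gene. Rspo3, an R-spondin that amplifies WNT signalling through LGR receptors, stood at 61.6 RPKM in ZIP10-positive cells against 19.3 RPKM in ZIP10-negative cells. The ratio for Rspo3 was 3.19 with an interval of 2.65 to 3.86, and its log2 ratio was 1.62 as deposited and 0.67 relative to the median gene. Rspo3 thus stood higher in ZIP10-positive cells on both scales, whereas Wif1 changed sign between them. Within a library, where scaling cancels, the RPKM of Rspo3 was 0.088 times that of Wif1 in ZIP10-positive cells and 0.048 times in ZIP10-negative cells.

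Other R-spondins were also present. Rspo4 stood at 164 RPKM in ZIP10-positive cells against 100.2 RPKM in ZIP10-negative cells, and Rspo1 at 65.2 RPKM in ZIP10-positive against 32.3 RPKM in ZIP10-negative cells, so that Rspo4 was the most abundant R-spondin in both libraries. Of 21 compared genes for WNT agonists, antagonists, receptors and targets, 5 were up and 1 was down as deposited, while 2 were up and 5 down on the median-gene scale. Over all genes 44.1% were up and 3.55% down as deposited. The 1 down was Sfrp4, at a listed 0 in ZIP10-positive against 1.90 RPKM in ZIP10-negative cells. The 2 up were Sfrp2 and Rnf43, with Rnf43 at 3.32 RPKM in ZIP10-positive against 0.36 RPKM in ZIP10-negative cells. In this list 2 genes reached 1 RPKM only in ZIP10-positive cells, Rnf43 among them, and 2 only in ZIP10-negative cells, Sfrp4 among them. The antagonist genes of this list differed from each other. Sfrp2, a secreted Frizzled-related protein, stood at 60.95 RPKM in ZIP10-positive cells against 11.3 RPKM in ZIP10-negative cells, while its relative Sfrp1 stood at 173 RPKM in ZIP10-positive against 161 RPKM in ZIP10-negative cells and Dkk3 at 6.38 RPKM in ZIP10-positive against 9.81 RPKM in ZIP10-negative cells.

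Crabp1 had the highest ratio of the 10 members. This gene, whose product binds retinoic acid in the cytoplasm, stood at 659 RPKM in ZIP10-positive cells and 163 RPKM in ZIP10-negative cells. The ratio was 4.04 with a counting interval of 3.53 to 4.64, and the log2 ratio was 2.01 as deposited. Relative to the median gene Crabp1 was 2.05-fold higher, a value at percentile 86.2 of all genes compared, and its log2 ratio was 0.62 to 0.92 with scaling to the upper quartile, outside the 50 most abundant genes, or without globins and Rn45s. In ZIP10-positive cells its RPKM was 0.94 times that of Wif1, against 0.41 times in ZIP10-negative cells.

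Genes of retinoid handling were mixed. Of 12 compared, 4 were up and 1 was down as deposited, while none was up and 2 were down on the median-gene scale. The 1 down as deposited was Aldh1a1, at 0.39 RPKM in ZIP10-positive against 3.22 RPKM in ZIP10-negative cells. In this list 2 genes reached 1 RPKM only in ZIP10-negative cells, Aldh1a1 among them, and 2 only in ZIP10-positive cells. Aldh1a2, at 1.39 RPKM in ZIP10-positive cells against a listed 0 in ZIP10-negative cells, was among the latter and among the 4 up. The 2 down on the median-gene scale were Aldh1a1 and Aldh1a3. Crabp2, the paralog of Crabp1, stood at 41.8 RPKM in ZIP10-positive cells against 13.2 RPKM in ZIP10-negative cells, in the direction of Crabp1 as deposited but less than 2-fold from the median gene. Dhrs3, a retinal reductase, stood at 38.2 RPKM in ZIP10-positive against 11.2 RPKM in ZIP10-negative cells. Aldh1a3, which makes retinoic acid, stood at 11.3 RPKM in ZIP10-positive cells against 23.5 RPKM in ZIP10-negative cells. With the pseudocount the log2 ratio of Aldh1a3 was -0.99, short of a call as deposited. The receptor gene Rarg stood at 35.1 RPKM in ZIP10-positive against 20.9 RPKM in ZIP10-negative cells.

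The 3 cell surface proteins lay below the median gene. Corin, a transmembrane serine protease known in mouse coat colour as a papilla-made suppressor of the agouti pathway, stood at 69.7 RPKM in ZIP10-positive cells and 73.9 RPKM in ZIP10-negative cells. Its ratio was 0.94, and the interval of 0.86 to 1.03 held 1. Relative to the median gene Corin had a log2 ratio of -1.05, at percentile 10.3 of all genes compared. The similar deposited values and the lower relative value are the same measurement on different scales.

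Alpl, tissue-nonspecific alkaline phosphatase, whose enzyme activity is a classical stain for the papilla, stood at 56.2 RPKM in ZIP10-positive cells against 40.1 RPKM in ZIP10-negative cells. The ratio for Alpl was 1.40 with an interval of 1.19 to 1.65, and its log2 ratio relative to the median gene was -0.48. Lepr, the leptin receptor, stood at 30.5 RPKM in ZIP10-positive cells and 40.3 RPKM in ZIP10-negative cells. With a ratio of 0.76 and an interval of 0.67 to 0.86, Lepr was the member furthest below the median gene, at a log2 ratio of -1.34 and percentile 6.15. The RPKM of Lepr was 0.54 times that of Alpl in ZIP10-positive cells, while in ZIP10-negative cells Lepr and Alpl differed by less than their counting intervals.

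Partners of these proteins gave fewer values. Of 10 listed genes around corin and natriuretic peptides, 4 could be compared and none was up or down on either scale, with Pcsk6, a convertase, at 1.32 RPKM in ZIP10-positive cells against 0.18 RPKM in ZIP10-negative cells, which a pseudocount of 0.1 would count as up; Nppa and Nppb, which encode natriuretic peptides, were listed at 0 in both libraries, and Asip, which encodes agouti, was not analysed here. Furin, a convertase that cleaves many precursor proteins, stood at 36.3 RPKM in ZIP10-positive cells against 26.9 RPKM in ZIP10-negative cells. Among 6 compared genes of phosphate metabolism and mineralisation, 4 were up (1 with a pseudocount of 5) and 1 was down as deposited, while none was up and 1 was down on the median-gene scale. The one down was Phospho1, a phosphatase of bone mineralisation, at 1.47 RPKM in ZIP10-positive cells against 15.7 RPKM in ZIP10-negative cells. Of 6 compared leptin signalling genes, 1 was up and none down as deposited, while none was up and 2 were down on the median-gene scale; these 2 were Stat3, at 10.8 RPKM in ZIP10-positive against 16.3 RPKM in ZIP10-negative cells, and Socs3, at 22.4 RPKM in ZIP10-positive against 28.9 RPKM in ZIP10-negative cells. Lep itself was listed at 0 in both.

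Vcan encodes versican, a large chondroitin sulphate proteoglycan of the papilla matrix. Its level was 22.3 RPKM in ZIP10-positive cells and 14.7 RPKM in ZIP10-negative cells, a ratio of 1.52 with an interval of 1.35 to 1.71. The Vcan log2 ratio was 0.57 as deposited and -0.35 on the median-gene scale, so the sign depended on the scaling. Of 13 compared partners of versican in the matrix, 3 were up and none down as deposited, while none was up and 3 were down on the median-gene scale. Adamts20, among the 3 down, reached 1 RPKM only in ZIP10-negative cells. Cd44, a hyaluronan receptor, stood at 61.4 RPKM in ZIP10-positive cells against 29.98 RPKM in ZIP10-negative cells, whereas the versican-binding fibrillin gene Fbn1 stood at 10.9 RPKM in ZIP10-positive against 15.4 RPKM in ZIP10-negative cells. The hyaluronan synthase genes Has1 and Has2 and the link protein gene Hapln1 were listed at 0 in both libraries.

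The transcription factors ran in different directions. Sox2, an HMG-box factor that in mouse marks papillae of particular hair types, stood at 4.46 RPKM in ZIP10-positive cells and 1.47 RPKM in ZIP10-negative cells. The fewest whole reads that give this ratio are 28 in ZIP10-positive cells and 9 in ZIP10-negative cells, and the resulting interval of the ratio of 3.03 was 1.39 to 7.31, which held the median gene's ratio. With a pseudocount its log2 ratio was 1.14 as deposited and 0.45 relative to the median gene. Sox2 had the widest counting interval of the 10 members.

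Sox18, another HMG-box factor, known in mouse for hair type formation and for vessel development, stood at 40.4 RPKM in ZIP10-positive cells against 32.0 RPKM in ZIP10-negative cells. Its ratio was 1.26 with an interval of 0.99 to 1.61, and its log2 ratio relative to the median gene was -0.63. Trps1, a GATA-type zinc finger repressor, stood at 4.71 RPKM in ZIP10-positive cells and 6.11 RPKM in ZIP10-negative cells. The Trps1 ratio was 0.77 with an interval of 0.60 to 0.98, and the log2 ratio relative to the median gene was -1.14. The RPKM of Sox2 was 0.95 times that of Trps1 in ZIP10-positive cells, against 0.24 times in ZIP10-negative cells.

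Of the other SOX genes 8 could be compared, with 3 up and none down as deposited and 1 up and none down on the median-gene scale; 3 of the 8 reached 1 RPKM only in ZIP10-positive cells, and with a pseudocount of 5 none was up. The most abundant of them was Sox4, at 34.1 RPKM in ZIP10-positive cells against 16.3 RPKM in ZIP10-negative cells, and the one up on that scale was Sox13, at 6.58 RPKM in ZIP10-positive against 0.996 RPKM in ZIP10-negative cells. Sox7 and Sox17, the closest relatives of Sox18, stood at 1.06 and 1.23 RPKM in ZIP10-positive cells, against 0.72 RPKM for Sox7 and a listed 0 for Sox17 in ZIP10-negative cells. Among GATA factors 3 were compared, with 2 up and none down as deposited and 1 up, Gata2, and none down on the median-gene scale; Gata2 and Gata6 reached 1 RPKM only in ZIP10-positive cells, and with a pseudocount of 5 none was up. Gata3 was the most abundant at 27.5 RPKM in ZIP10-positive cells against 11.6 RPKM in ZIP10-negative cells, unlike Trps1 in direction, and Gata2 had 2.72 RPKM in ZIP10-positive cells and a listed 0 in ZIP10-negative cells. An exact 0 can be a failed estimate, since the broadly expressed Psmg4 had 69.5 RPKM in ZIP10-positive cells and a listed 0 in ZIP10-negative cells.

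The order of the members by level was similar in both libraries, with Rspo3 and Lepr exchanging places. In ZIP10-positive cells the order was Wif1, Crabp1, Corin, Rspo3, Alpl, Sox18, Lepr, Vcan, Trps1 and Sox2. In ZIP10-negative cells it was Wif1, Crabp1, Corin, Lepr, Alpl, Sox18, Rspo3, Vcan, Trps1 and Sox2. Neighbours whose counting intervals overlapped in ZIP10-positive cells were Wif1 and Crabp1, Corin and Rspo3, Rspo3 and Alpl, and Trps1 and Sox2. In ZIP10-negative cells these were Lepr and Alpl, and Alpl and Sox18. Rspo3 was in place 4 in ZIP10-positive cells and in place 7 in ZIP10-negative cells, while Lepr was in place 7 in ZIP10-positive cells and in place 4 in ZIP10-negative cells.

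**Figure D3:**
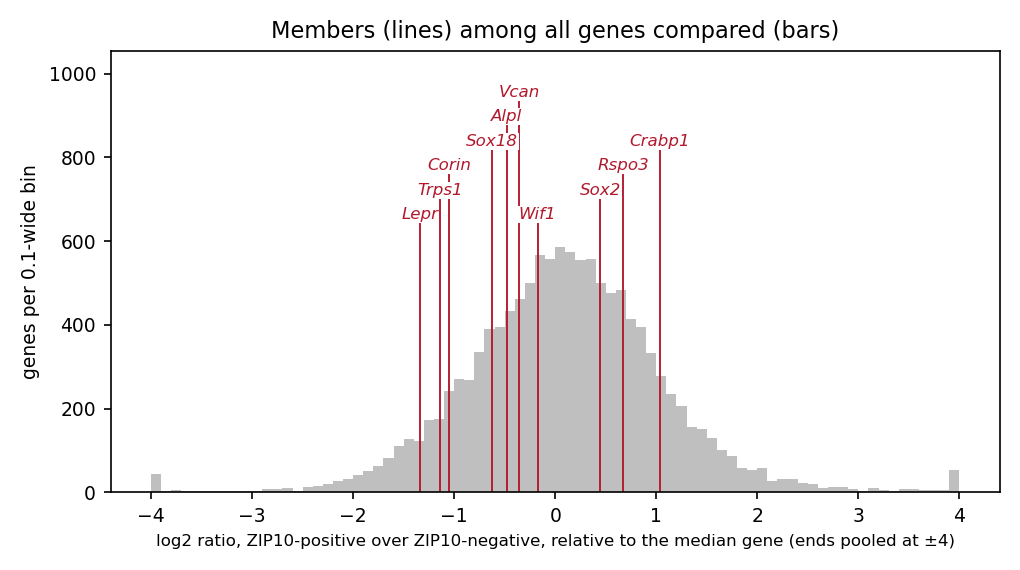
Number of genes (bars, 12249 in all) by log2 ratio of ZIP10-positive over ZIP10-negative RPKM relative to the median gene, with the 10 members as labelled lines whose heights carry no value. The members lie from -1.34 (Lepr) to 1.03 (Crabp1), inside the bulk of all genes, with 7 below 0.

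Other genes used as markers of the papilla and its sheath were set beside the members. Of 35 compared, 7 were up and none down as deposited, while 1 was up and 10 were down on the median-gene scale. In this list 3 genes reached 1 RPKM only in ZIP10-positive cells, with Slc26a7 among the 7 up. Prdm1, among the 10 down, was the 1 gene that reached it only in ZIP10-negative cells. The median log2 ratio of the 35 genes was 0.35 as deposited and -0.45 relative to the median gene, beside 0.53 and -0.42 for the members. Sostdc1, a WNT and BMP antagonist also made by follicle epithelium, was the one up on that scale, at 192 RPKM in ZIP10-positive cells against 40.7 RPKM in ZIP10-negative cells. The most abundant gene was Enpp2, which encodes autotaxin, at 292 RPKM in ZIP10-positive against 285 RPKM in ZIP10-negative cells. Hhip, a hedgehog-binding membrane protein, stood at 33.2 RPKM in ZIP10-positive cells against 42.0 RPKM in ZIP10-negative cells, and the BMP antagonist gene Nog at 11.9 RPKM in ZIP10-positive against 17.1 RPKM in ZIP10-negative cells.

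Among 21 of these genes with at least 5 RPKM in both libraries, the nearest in log2 ratio was Fgf7 to Wif1, Sostdc1 to Crabp1 and Lef1 to Corin. Fgf7, a fibroblast growth factor, had a log2 ratio of 0.76 against 0.80 for Wif1, at 46.6 RPKM in ZIP10-positive cells and 27.0 RPKM in ZIP10-negative cells. Sostdc1 had 2.21 against 2.01 for Crabp1. Lef1, a transcription factor of the WNT pathway, had -0.011 against -0.084 for Corin, at 18.8 RPKM in ZIP10-positive cells and 18.95 RPKM in ZIP10-negative cells. With 2 libraries such a likeness rests on 1 ratio per gene.

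**Figure D4:**
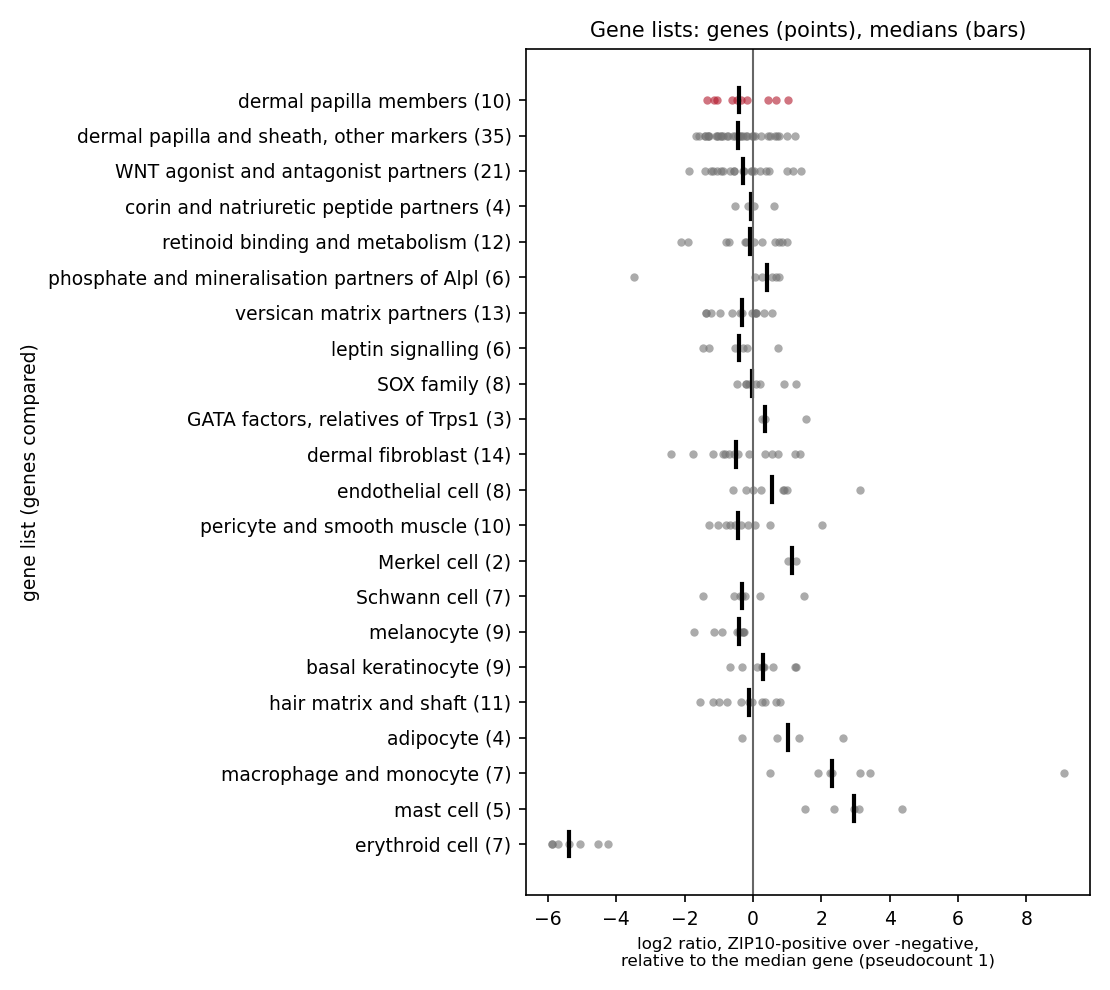
Log2 ratio of ZIP10-positive over ZIP10-negative RPKM relative to the median gene for each compared gene (points) of the members and of 21 companion and cell type lists, with list medians (bars) and the number of genes compared in brackets. The members' median of -0.42 lies near those of dermal fibroblast (-0.49), melanocyte (-0.40) and pericyte (-0.44) genes. Medians of leptin signalling genes (-0.41) and of other papilla and sheath markers (-0.45) also lie near it. Macrophage (2.31) and mast cell (2.95) medians lie far above and the erythroid median (-5.40) far below.

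Markers of other cells that can make these genes were read in the same libraries. Endothelial markers had a summed level of 33.8 RPKM over 16 genes in ZIP10-positive cells against 7.18 RPKM in ZIP10-negative cells. Among them Cdh5, which encodes VE-cadherin, stood at 0.95 RPKM in ZIP10-positive cells against 0.29 RPKM in ZIP10-negative cells, Kdr at 0.21 RPKM in ZIP10-positive against 0.28 RPKM in ZIP10-negative cells, and Emcn and Flt4 were listed at 0 in both. The most abundant was Egfl7 at 16.5 RPKM in ZIP10-positive against 0.32 RPKM in ZIP10-negative cells. Cldn5 stood at 4.15 RPKM in ZIP10-positive against 2.13 RPKM in ZIP10-negative cells. Esam had 2.18 RPKM in ZIP10-positive against 2.01 RPKM in ZIP10-negative cells, and Pecam1 2.48 RPKM against 0.97 RPKM. Of the 8 compared, 6 reached 1 RPKM only in ZIP10-positive cells, so their direction was set by the filter and no count is read from them. Their part in the Sox18 value was not tested.

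Of the 7 Merkel cell markers listed in the table, Atoh1, Krt20, Isl1 and Chga stood at 0 in both libraries, and the summed level was 8.81 RPKM in ZIP10-positive cells against 1.97 RPKM in ZIP10-negative cells, including the simple keratin genes Krt8 and Krt18. Krt8 stood at 5.16 RPKM in ZIP10-positive cells against 0.69 RPKM in ZIP10-negative cells and Krt18 at 2.70 RPKM in ZIP10-positive against 0.31 RPKM in ZIP10-negative cells. These were the only 2 of the list compared, and both reached 1 RPKM only in ZIP10-positive cells, so their direction was set by the filter. The 9 Schwann cell markers summed to 40.1 RPKM in ZIP10-positive against 25.8 RPKM in ZIP10-negative cells, with 1 of 7 compared up and none down as deposited, and 1 up and 1 down on the median-gene scale. Sox10, a defining factor of that lineage, stood at 5.15 RPKM in ZIP10-positive cells against 2.20 RPKM in ZIP10-negative cells, in the same direction as Sox2. Its part in the Sox2 value was not tested. Sox2 lies within the annotated gene Sox2ot on the same strand, which had 0.26 RPKM in ZIP10-positive cells against a listed 0 in ZIP10-negative cells.

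Dermal fibroblast markers summed to 644 RPKM in ZIP10-positive cells against 596 RPKM in ZIP10-negative cells, with 5 of 14 up and 1 down as deposited, and 2 up and 3 down on the median-gene scale. The papilla members summed to 1649 RPKM in ZIP10-positive against 792 RPKM in ZIP10-negative cells. Their ratio of sums was 2.08, near the median gene's ratio of 1.97, against 1.08 for the fibroblast markers. Without Wif1 and Crabp1 the members' sums lay closer together, with 289.9 RPKM in ZIP10-positive cells and 227.9 RPKM in ZIP10-negative cells. The list medians relative to the median gene were similar, -0.42 for the members and -0.49 for the fibroblast markers. Pericyte and smooth muscle markers had 2 of 10 up and none down as deposited, and 1 up and 2 down on the median-gene scale. Of the 9 melanocyte markers none was up or down as deposited, while none was up and 2 were down on the median-gene scale. In the adipocyte list 3 of 4 compared genes were up and none down, with 2 up and none down on the median-gene scale. Pparg, up on both scales, reached 1 RPKM only in ZIP10-positive cells, at 7.34 RPKM against a listed 0. Adipoq, the defining marker of that list, was listed at 0 in both.

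Epithelial and blood cell markers gave the surroundings of these values. Basal keratinocyte markers had 7 of 9 up and none down as deposited, with 2 up and none down on the median-gene scale, and hair matrix and shaft markers 4 of 11 up and none down, with none up and 2 down on the median-gene scale. Macrophage markers had 7 of 7 compared genes up, 6 of them also on the median-gene scale, but 5 of the 7 reached 1 RPKM only in ZIP10-positive cells. Mast cell markers were up in 5 of 5 on both scales, with Fcer1a reaching 1 RPKM only in ZIP10-positive cells. Erythroid markers were down in 7 of 7 on both scales, with Slc4a1 reaching 1 RPKM only in ZIP10-negative cells. Over all genes 44.1% were up and 3.55% down as deposited, and 14.7% up and 11.4% down on the median-gene scale. The part of these other cells in the members' values was not tested.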

How the data were processed

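RNA of 2 sorted populations was measured, with 1 library each. Per the labels' protocols, 10 ng of total RNA went into each library, which was read from one end for 50 bases. The authors deposited RPKM values, and the table is named for that unit. Cutadapt, Cufflinks, TopHat and build mm9 are listed in the submitters' processing notes. Their versions and settings, the annotation and any use of strand: not given in the sources used here. Reads of overlapping genes may be shared; GENCODE vM21 annotates antisense genes at Rspo3, Corin and Vcan that were not analysed here.

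The 12249 genes that reached 1 RPKM in either library were compared as log2((positive + 1)/(negative + 1)), which understates the change of low genes. The median gene is the median log2 ratio, 0.98, of 9620 genes at 1 RPKM or more in both libraries, and this shift was divided between the libraries. Genes were called up or down at 2-fold by size alone, since no replicate exists. Read numbers were estimated from the depth and the longest coding transcript in GENCODE vM21, less 199 bases, or as the fewest whole reads that give the ratio (Sox2). Intervals are exact 95% Poisson for levels and exact binomial for ratios. Shorter transcripts would give wider intervals.

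Members and gene lists were chosen with earlier results of these data known. Named are all members, up to 4 of the most abundant genes of each companion list, and list genes 2-fold from the median gene at 5 RPKM or more; some of these are left unprinted. Sox7, Sox17, Sox10, Cdh5, Kdr, Gata2, Aldh1a1, Sfrp4 and Rnf43 and the genes listed at 0 were named after their values were seen. So were Aldh1a2, Adamts20, Slc26a7, Prdm1 and Fcer1a. Alternatives were other pseudocounts, scalings and filters. Python 3.11.15, pandas 2.3.3, numpy 2.4.6, scipy 1.17.1 and matplotlib 3.10.9 were used, and the calculation was tested on simulated data.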

Additional observations from a re-analysis of the deposited data

How the results depend on the processing

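No paired analysis was possible because each group has 1 library, and no library could be left out. Scaling decided most results. The median log2 ratio of the members, 0.53 as deposited, was -0.42 relative to the median gene, -0.53 with scaling to the upper quartile, -0.75 with scaling outside the 50 most abundant genes and -0.82 without globin genes and Rn45s. Under these 4 scalings in that order, members at least 2-fold higher numbered 1, 0, 0 and 0, in place of 3, and members at least 2-fold lower 3, 3, 3 and 4, in place of 0. Relative to the median gene, 14.7% of all genes compared were higher and 11.4% lower. No such share was computed under the other 3 scalings, which lower the ratio of every gene compared further. For the other papilla and sheath markers the median, 0.35 as deposited, was -0.45, -0.55, -0.77 and -0.83, with 1, 1, 0 and 0 genes higher in place of 7, and 10, 12, 14 and 15 lower in place of 0; a pseudocount of 5 left 4 higher. The basal keratinocyte median turned to -0.028 with scaling outside the 50 most abundant genes and to -0.088 without globin genes and Rn45s. Crabp1, Rspo3 and Sox2 stayed above 0 and Corin, Trps1 and Lepr below 0 under all of these. Pseudocounts of 0.1 and 5 left all 10 members within their counting intervals; with a pseudocount of 5, and with a filter at 5 RPKM, 2 members were at least 2-fold higher. Filters on low values only set which genes are counted and cannot change a gene's ratio. With a pseudocount of 5, no other SOX gene was up as deposited in place of 3, and no GATA factor in place of 2. Genes up numbered 1 in place of 4 among phosphate partners and 1 in place of 3 among versican partners. Among WNT partners and dermal fibroblast markers they numbered 3 each in place of 5. Among hair matrix and shaft markers they numbered 2 in place of 4. The 1 gene down among WNT partners and the 1 among retinoid genes were no longer down. Shares over all genes are given only for a pseudocount of 1, as deposited and relative to the median gene. No count is read from Merkel cell and endothelial markers, whose direction was set by the filter. With a pseudocount of 0.1, 1 corin partner was up in place of 0. Depth limits Sox2 most, where 28 reads in ZIP10-positive and 9 reads in ZIP10-negative cells are the fewest whole reads that give the ratio, beside 23.1 reads in ZIP10-positive and 7.41 reads in ZIP10-negative cells from the estimated depth; true numbers may be multiples.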
